A study of Mus musculus with 41 samples.

Results

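Among the 14738 Foxa2 peaks of newborn rib chondrocytes, 906 (6.15%, 95% Wilson interval 5.77 to 6.55%) coincided with a Runx2 peak of 3T3 fibroblasts and with no Runx2 peak of the primary skeletal cells. These sites were chosen by peak overlap: at least 1 bp shared with the list named for 3T3 Runx2 day 0 or the 3T3 Runx2 day 3 list, and none with the chondrocyte or osteoblast Runx2 list. They are called 3T3-only sites below, a name that refers to Runx2 alone. The overlaps with those 4 Runx2 lists are the rule and not a result. The other Foxa2 peaks fell into 940 with Runx2 in both 3T3 and primary cells, 2022 with Runx2 in primary cells only, and 10870 with no Runx2 list.

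Foxa2 is a forkhead transcription factor that can bind nucleosomal DNA and open chromatin. In cartilage it acts with Foxa3 in the hypertrophic differentiation of chondrocytes. Runx2 is a runt-domain factor that is required for osteoblast formation and promotes chondrocyte hypertrophy. Jun is a subunit of AP-1, a leucine-zipper dimer found at many active enhancers.

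The series holds 41 samples, of which the 10 chromatin immunoprecipitation (ChIP-seq) libraries behind 8 peak lists are used here. Foxa2 was precipitated from rib chondrocytes of wild-type C57BL/6 mice at postnatal day 1 (1 library). Runx2 was precipitated through a FLAG tag in rib chondrocytes and calvarial osteoblasts from postnatal day 1 C57BL/6 knock-in mice with 1 tagged allele (Runx2-BioFL/+), with 2 libraries and 1 list for each cell type. Jun came from wild-type C57BL/6 calvarial osteoblasts of the same age (1 library). The 3T3 cells overexpressed tagged Runx2 (Runx2BioFL) or GFP and were precipitated through FLAG, per the titles, at day 0 and after 3 days in osteogenic medium (1 library each). That medium held 100 ng/ml BMP-2, 50 μg/ml ascorbate, 10 mM glycerophosphate and 10% FBS. Runx2 in 3T3 cells was therefore overexpressed, whereas in primary cells it came from a tagged knock-in allele. Cell type, expression level and tissue cannot be told apart in a comparison of these lists.

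The lists hold positions only, with no peak height, and read depth is unknown. Their sizes differed: 31013 peaks for the list named for 3T3 Runx2 day 0 and 50180 for 3T3 Runx2 day 3, against 15390 for chondrocyte Runx2, 10241 for osteoblast Runx2, 14937 for Jun, 2475 for GFP day 0 and 16799 for the list named for GFP day 3. In the sample labels 2 of these lists are crossed: the one named for GFP day 3 is given for the Runx2 day 0 library, and the one named for 3T3 Runx2 day 0 for the GFP day 3 library. Both were used under their own names. Of the 906 sites, 767 overlapped the day 3 list, whose name and label match, and 139 rested on the list named for day 0 alone. With the crossed lists exchanged there were 815 sites, of which 771 were among the original ones (85.1% of the 906 and 94.6% of the 815). A missing peak means that no peak was listed, not that the factor was absent.

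Most 3T3-only sites were listed for Runx2 at day 3. The day 3 list alone accounted for 470 of them (51.9%, 48.6 to 55.1%), both lists for 297 (32.8%, 29.8 to 35.9%) and the list named for day 0 alone for 139 (15.3%, 13.1 to 17.8%). Over all Foxa2 peaks, 10.8% overlapped the day 3 list and 7.08% the list named for day 0, so the longer list also held more of the whole. Among the 940 Foxa2 peaks that also had Runx2 in primary cells, 491 (52.2%, 49.0 to 55.4%) were in both 3T3 lists and 332 (35.3%) in day 3 alone. The split depended on the crossed labels: with the lists exchanged, 748 of 815 sites (91.8%, 89.7 to 93.5%) were in day 3 alone, 19 (2.33%, 1.5 to 3.61%) in both lists and 48 (5.89%) in day 0 alone. These day shares follow from the rule and are given without a test.

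The widest 3T3-only site was chr16:23993409-23993905 (build mm9, as all positions here), 497 bp long. It met a day 3 Runx2 peak of 279 bp over 228 bp, and the nearest primary Runx2 peak, from osteoblasts, lay 4.35 kb away. On chromosome 16 from 93535476 to 93535929 (454 bp), Foxa2 shared 271 bp with the Runx2 peak of each 3T3 list, and the nearest primary Runx2 peak lay 17.1 kb away. A site on chromosome 4 from 55789016 to 55789462 (447 bp) enclosed both 3T3 Runx2 peaks whole, of 239 bp at day 3 and 155 bp in the list named for day 0.

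Other wide sites touched Runx2 only at an edge. On chromosome 2 from 144267422 to 144267911 (490 bp) the overlap was 8 bp with the day 3 peak and 50 bp with that of the list named for day 0. On chromosome 2 from 91918701 to 91919149 (449 bp) it was 4 bp of a day 3 peak 488 bp wide. Of the 8 widest, chr10:95202809-95203252 shared 132 bp and chr6:99472688-99473127 shared 239 bp with a day 3 peak. The last, chr1:182397911-182398344, shared 45 bp with the day 3 peak and 154 bp with that of the list named for day 0. No annotation or genome sequence of build mm9 was used here, so neither genes nor sequences are given for these positions.

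The overlap was substantial at most sites. The largest overlap of a site with a 3T3 Runx2 peak had a median of 84 bp; it reached 50 bp or more at 686 sites and was 10 bp or less at 34. Just outside the rule, 39 Foxa2 peaks with no Runx2 list lay 10 bp or less from a 3T3 Runx2 peak without overlapping it. At the other border, 20 sites had a primary Runx2 peak at a gap of 10 bp or less. These borders depend on peak width, since the lists used here give no summit. The sites were themselves narrow, with a median width of 113 bp (quartiles 93.2 and 147 bp), against 119 bp for Foxa2 peaks with no Runx2 list and 125 bp for those with Runx2 in both 3T3 and primary cells.

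Foxa2 centres lay further from 3T3 Runx2 centres than from chondrocyte Runx2 centres, which is given as a description. At 3T3-only sites the centre of the Foxa2 peak was a median of 87.0 bp (quartiles 47.5 and 136 bp) from the centre of the day 3 Runx2 peak and 78.2 bp (40.0 and 126 bp) from that of the list named for day 0. Where Runx2 was present in both 3T3 and primary cells, the median was 82.0 bp to the day 3 peak, 65.5 bp to that of the list named for day 0, 45.0 bp to the chondrocyte peak and 63.2 bp to the osteoblast peak. Foxa2 peaks with Runx2 in primary cells only had a median distance of 44.5 bp (21.0 and 80.0 bp) to the chondrocyte Runx2 peak and of 63.0 bp to the osteoblast one. Peak width moved with this distance: the Runx2 peaks at these pairs had a median of 232 bp at day 3 for 3T3-only sites, 145 bp in chondrocytes and 186 bp in osteoblasts. The part of width in the difference was not tested.

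**Figure D1:**
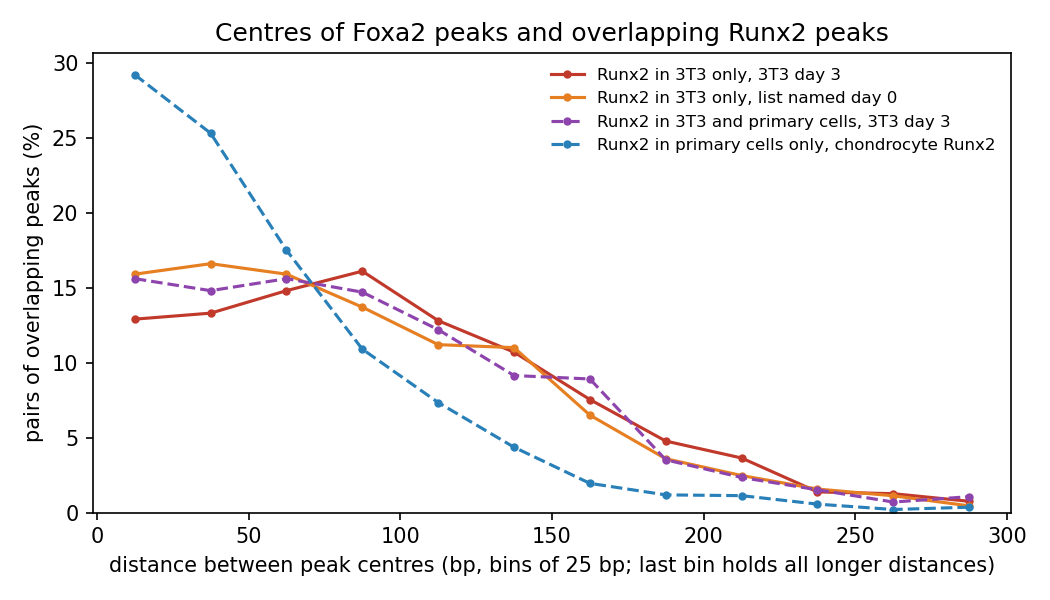
Distance between the centres of overlapping Foxa2 and Runx2 peaks (x axis, bp, bins of 25 bp) as a share of overlapping pairs (y axis, %). The last bin holds all longer distances. The curves for 3T3 Runx2 are nearly flat up to 100 bp, with a median of 87.0 bp at day 3, whereas chondrocyte Runx2 at Foxa2 peaks with primary Runx2 only is concentrated near 0, with a median of 44.5 bp.

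Although none overlapped a primary Runx2 peak by the rule, many 3T3-only sites had one close by. The gap to the nearest primary Runx2 peak had a median of 10.9 kb (quartiles 1.41 and 32.5 kb), against 21.8 kb (5.67 and 66.7 kb) for Foxa2 peaks with no Runx2 list. A primary Runx2 peak lay within 1 kb of 206 sites (22.7%, 20.1 to 25.6%), compared with 10.6% (10.1 to 11.2%) of the Foxa2 peaks with no Runx2 list. Of these 206, 128 had only a chondrocyte peak within that distance, 31 only an osteoblast peak and 47 both. The chondrocyte Runx2 list was the larger of the 2. Beyond 100 kb from any primary Runx2 peak lay 65 sites (7.17%), against 17.5% of Foxa2 peaks with no Runx2 list on chromosomes that carry one. Of the 792 day 3 Runx2 peaks at the sites, 79 also overlapped a primary Runx2 peak outside the site. Foxa2 peaks with no Runx2 list overlap no 3T3 Runx2 peak, so the choice of classes may itself favour shorter gaps at the sites. The part of this choice in the gaps was not tested.

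Single sites show both ends of this range. At chr2:115681750-115681892, chr2:128701250-128701415 and chr4:119824781-119824865, the Foxa2 peak directly abutted a chondrocyte Runx2 peak with a gap of 0 bp. The overlap of these sites with 3T3 Runx2 was itself small, at 3 bp, 29 bp at most and 5 bp. At the far end, a site on chromosome 1 from 26743953 to 26744344 lay 872 kb from primary Runx2 and shared 74 bp with a day 3 peak. A site on chromosome 12 from 79451872 to 79452096 lay 397 kb from primary Runx2, and both 3T3 Runx2 peaks lay wholly inside it. These 3T3 peaks stood at place 3 in the file of the list named for day 0 and place 74 in that of day 3. The third, on chromosome 17 from 7406017 to 7406212, was 340 kb away and was listed at day 3 only.

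**Figure D2:**
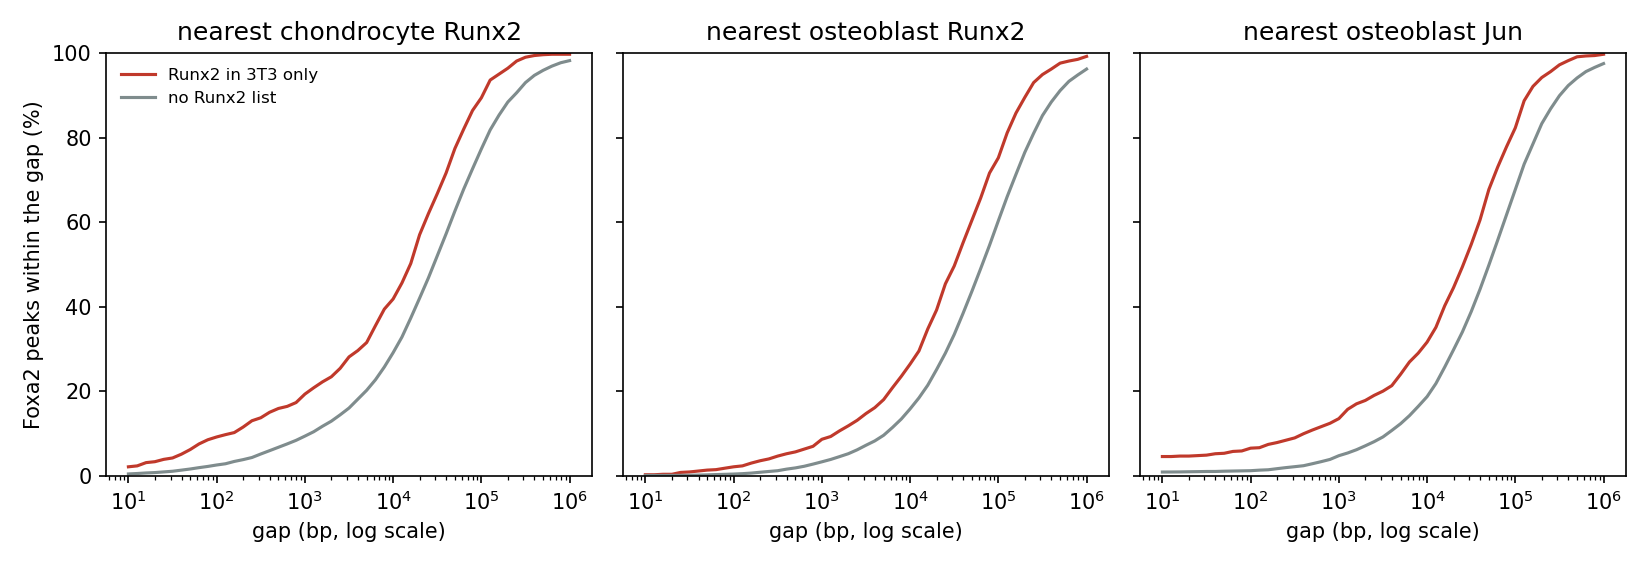
Cumulative share of Foxa2 peaks (y axis, %) with the nearest chondrocyte Runx2, osteoblast Runx2 or osteoblast Jun peak within a given gap (x axis, bp, log scale). The curve of the 3T3-only sites lies above that of Foxa2 peaks with no Runx2 list in all 3 panels; at 1 kb it stands at 19.3, 8.61 and 13.5%, against 9.36, 3.28 and 4.73%.

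Jun in osteoblasts was not used by the rule and met 3T3-only sites more often than Foxa2 peaks with no Runx2 list. It overlapped 40 of 906 sites (4.42%, 3.26 to 5.96%), where 1.87% of all Foxa2 peaks overlapped Jun. The share was 0.8% (87 of 10870, 0.649 to 0.986%) with no Runx2 list, a difference of 3.61 percentage points (2.44 to 5.16). The odds ratio was 5.72 (3.81 to 8.47; two-sided Fisher's exact test, adjusted p = 2.6e-14 over 8 tests). The share was higher at 3T3-only sites on 14 of 20 chromosomes, lower on 5 and equal on 1. From the day 3 list alone, 36 of 767 sites overlapped Jun and the odds ratio was 5.91 (3.87 to 8.85). Without peaks that had a primary Runx2 peak within 1 kb, 23 of 700 sites overlapped Jun (3.29%) and the odds ratio was 4.43 (2.63 to 7.2). Even so, 866 of the 906 sites had no Jun peak. The sites were chosen for a peak in another ChIP list and the comparison class for lacking one, which may itself favour an excess. The same comparison gave odds ratios of 7.68 for GFP day 0 and 6.41 for the list named for GFP day 3. The part of this choice in the Jun excess was not tested.

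Jun was less frequent at 3T3-only sites than at Foxa2 peaks that also had Runx2 in primary cells. The latter overlapped Jun in 84 of 940 cases (8.94%, 7.28 to 10.9%), and the odds ratio of 3T3-only sites against them was 0.471 with an interval from 0.311 to 0.703 (adjusted p = 0.000243 by Fisher's exact test), with a lower share on 16 of 20 chromosomes. The odds ratio from the day 3 list alone was 0.499, and for sites with no primary Runx2 peak within 1 kb it was 0.346 (0.206 to 0.562). The call was lost in the wider 50% of each list (0.566, adjusted p = 0.363, Fisher's exact test) and in the first 50% in file order (0.702, adjusted p = 0.401, Fisher's exact test), where 403 and 246 sites were left. Against the 2022 Foxa2 peaks with Runx2 in primary cells only, of which 3.17% (2.49 to 4.02%) overlapped Jun, the odds ratio of 1.41 (0.919 to 2.15) did not pass the exact test (adjusted p = 0.14). In the first 50% in file order the odds ratio was 3.48 (1.65 to 7.27) and passed that test (adjusted p = 0.00217, Fisher's exact test). For sites with no primary Runx2 peak within 1 kb it was 1.04 (0.611 to 1.71). In the main comparison of all 906 sites, the difference was 1.25 percentage points, with an interval from -0.189 to 2.93. Jun was precipitated from osteoblasts, and the rule left no 3T3-only site with an osteoblast Runx2 peak. Such a peak was present at 302 of the 940 peaks (32.1%) and at 211 of the 2022 (10.4%). This choice of classes may itself favour a lower Jun share at 3T3-only sites, and its part was not tested.

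With the lists used under their own names, 23 of the 40 sites with Jun were in both 3T3 Runx2 lists. Jun overlapped 23 of the 297 sites in both 3T3 Runx2 lists (7.74%, 5.22 to 11.4%), 13 of the 470 at day 3 only (2.77%, 1.62 to 4.67%) and 4 of the 139 in the list named for day 0 only (2.88%, 1.12 to 7.17%). With the crossed lists exchanged, 6 of the 38 sites with Jun were in both lists and 30 at day 3 only, so the split by day rests on which list is day 0. It was made after the values were seen and is given without a test. The widest site with Jun was the one on chromosome 6 from 99472688 to 99473127, which also overlapped the list named for GFP day 3. It was followed by chr19:44341192-44341555, where an osteoblast Runx2 peak lay 20 bp away, and chr10:41194790-41195110, where Runx2 peaks of both primary cell types lay at 1957 and 1935 bp. All 3 were listed for 3T3 Runx2 at day 3 only.

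The GFP lists, the background of the FLAG precipitation in 3T3 cells, touched few of the sites. GFP day 0 overlapped 7 of 906 (0.773%, 0.375 to 1.59%; all Foxa2 peaks 0.224%) and the one named for GFP day 3 was met by 23 (2.54%, 1.7 to 3.78%; all Foxa2 peaks 0.665%). In total 29 sites (3.2%, 2.24 to 4.56%) were in a GFP list, and 843 (93.0%) in neither a GFP list nor Jun. Small as they were, the shares exceeded those of Foxa2 peaks with no Runx2 list, which were 0.101% for GFP day 0 and 0.405% for that named for GFP day 3. By Fisher's exact test the odds ratio was 7.68 for GFP day 0 (interval 2.52 to 21.8, adjusted p = 0.000373). For the list named for GFP day 3 it was 6.41 (interval 3.67 to 10.9, adjusted p = 1.48e-09 by Fisher's exact test). The 3T3-only sites were chosen for a peak of the FLAG precipitation in 3T3 cells, and the comparison class for lacking one. The GFP lists are from the same cells and precipitation, so the choice of classes itself favours an excess. No conclusion on the sites is drawn from it. The day 3 Runx2 list alone gave odds ratios of 9.2 and 5.8. The first call rested on 7 sites, and its odds ratio ranged from 4.58 to 23.8 over 12 alternatives, with 17.0 after the exchange of the crossed lists. It was lost when 50% of the shorter peak had to be shared (4.58, adjusted p = 0.067, Fisher's exact test).

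The second GFP comparison uses a list with crossed labels, and with the exchange its odds ratio became 46.9 (37.4 to 59.0), and 36.9% of the 815 sites were then in the list taken as GFP day 3. That list is the one named for 3T3 Runx2 day 0, by which the original sites were in part chosen. The exchanged values therefore use a list of the original rule and are not separate support. Compared with Foxa2 peaks that had Runx2 in both 3T3 and primary cells, neither GFP share passed the exact test: 1.06% for GFP day 0 (difference -0.291 points, -1.26 to 0.656; Fisher's exact test, adjusted p = 0.718) and 2.77% for the list named for GFP day 3 (difference -0.227 points, -1.74 to 1.29; adjusted p = 0.774, Fisher's exact test). After the exchange the latter passed it, with 36.9% of 3T3-only sites against 59.4% (odds ratio 0.401), again with a list of the original rule. Among single sites, chr9:123370956-123371291 and chr5:75550361-75550657 were in GFP day 0 and in both 3T3 Runx2 lists. The former held the peak at place 1 in the file of the list named for 3T3 Runx2 day 0.

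**Figure D3:**
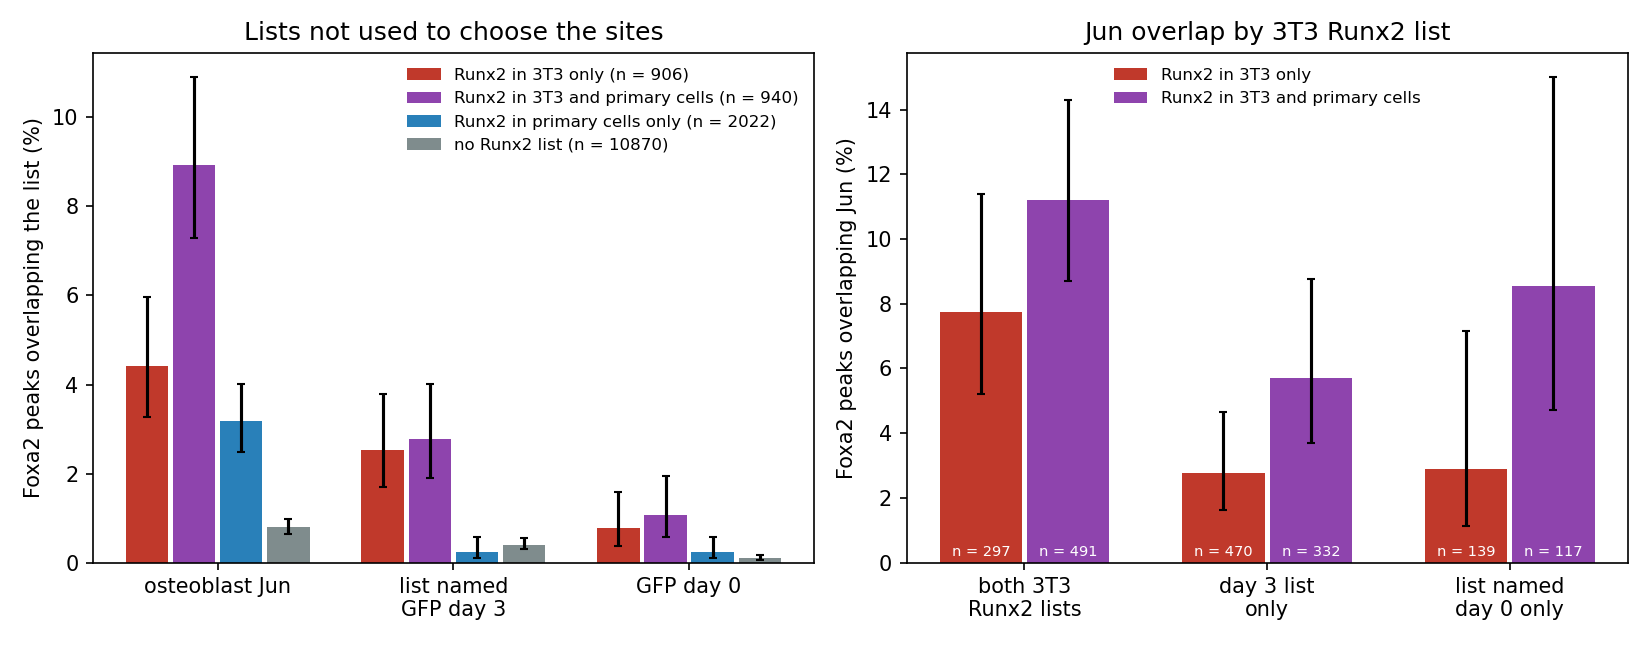
Share of Foxa2 peaks (y axis, %) that overlap the Jun list or either GFP list, by class of Foxa2 peak (left), and share that overlap Jun by 3T3 Runx2 list (right); bars give the share and lines the 95% Wilson interval. Jun stands at 4.42% of the 3T3-only sites, between 0.8% with no Runx2 list and 8.94% with Runx2 in 3T3 and primary cells, and at 7.74% of the 3T3-only sites in both lists as named.

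Seen from 3T3 cells, few Runx2 peaks without primary Runx2 overlapped Foxa2. Of the 37878 day 3 Runx2 peaks without primary Runx2, 755 overlapped Foxa2 (1.99%), compared with 871 of the 12302 peaks with primary Runx2 (7.08%). These 755 peaks were themselves free of primary Runx2; 713 of them lay at a 3T3-only site and 42 only at another Foxa2 peak. In the list named for day 0 the shares were 1.97 and 6.0%. Across the day 3 peaks without primary Runx2, 8.6% overlapped Jun. Those with Foxa2 did so less often than those without: 36 of 755 (4.77%, 3.46 to 6.53%) against 3221 of 37123 (8.68%, 8.39 to 8.97%), an odds ratio of 0.527 with an interval from 0.365 to 0.738 (adjusted p = 0.000157 by Fisher's exact test), with a lower share on 15 of 20 chromosomes. The call was lost with GFP-listed peaks removed (0.678, adjusted p = 0.0605, Fisher's exact test), in the wider 50% of each list and in the first 50% in file order.

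The overlap of these day 3 peaks with the other 3T3 lists is given for both crossed lists. Of those with Foxa2, 40.3% (36.8 to 43.8%) were also in the list named for day 0, against 42.0% (41.5 to 42.5%) of those without. The list bearing the GFP day 3 name met 4.11% (2.91 to 5.77%) and 11.9% (11.6 to 12.2%). If the crossed lists are exchanged, these 2 pairs of shares trade places, and the one for GFP day 3 becomes 40.3 against 42.0%. GFP day 0, whose name and label match, met 1.46% (0.815 to 2.59%) and 2.57% (2.41 to 2.74%), with overlapping intervals. Peaks with Foxa2 were wider (median 230 against 215 bp) and stood later in the file (median place at 65.4 against 58.3% of the list). No label gives the order of the files, and these values are descriptions without a test.

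Along the Foxa2 file, 3T3-only sites were spread more evenly than the other Foxa2 peaks with Runx2. They made up 9.43% of the first 1474 Foxa2 peaks and 4.34% of the last 1473. Peaks with Runx2 in both 3T3 and primary cells went from 19.2 to 1.36% and those with Runx2 in primary cells only from 30.9 to 6.18%. As a result, 3T3-only sites were 32.9% of all Foxa2 peaks with 3T3 Runx2 in the first of 10 equal parts of the file and 76.2% in the last. Their Jun overlap lay early in the file, with 18 of 139 sites (12.9%) in the first part and 22 of 767 (2.87%) after it. The Jun share by part of the file was not worked out for the other Foxa2 peaks. Whether this course is particular to 3T3-only sites was therefore not tested. Stratified by these 10 parts (Mantel-Haenszel), the Jun odds ratio against Foxa2 peaks with no Runx2 list was 3.84 (2.58 to 5.7). That against peaks with Runx2 in primary cells only was 1.61 (1.07 to 2.41) and passed the threshold after adjustment. Against peaks with Runx2 in 3T3 and primary cells it was 0.615 (0.412 to 0.918), weaker than the 0.471 without strata. The comparison of day 3 Runx2 peaks with and without Foxa2 was stratified by 10 parts of the 3T3 Runx2 day 3 file instead. Its Jun odds ratio also weakened, from 0.527 to 0.657 (0.466 to 0.926). Both of these lower odds ratios kept their call.

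The earliest 3T3-only sites in the Foxa2 file bordered chondrocyte Runx2 in 2 of 3 cases. The first, on chromosome 18 from 79467526 to 79467647, was in Jun and both 3T3 Runx2 lists and had a chondrocyte Runx2 peak 2 bp away. The next, on chromosome 1 from 174238130 to 174238231, shared 2 bp with a day 3 peak and lay 43 bp from chondrocyte Runx2. The third, on chromosome 19 from 28240713 to 28240802, was listed at day 3 only and lay 10.6 kb from primary Runx2.

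**Figure D4:**
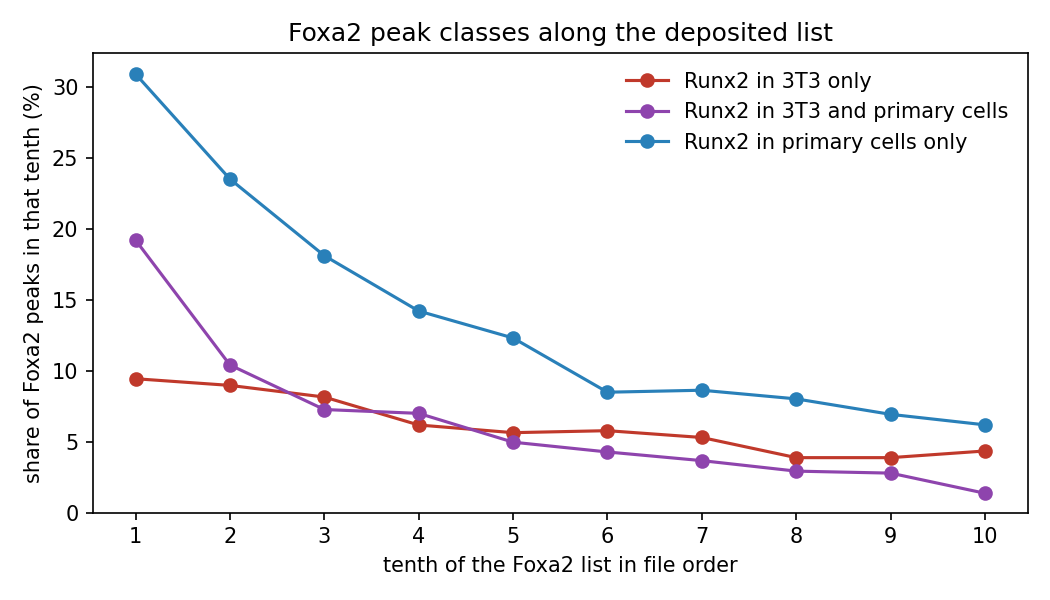
Share of Foxa2 peaks (y axis, %) in each class along 10 equal parts of the deposited Foxa2 file (x axis). The 3T3-only sites go from 9.43 to 4.34%, a shallower course than peaks with Runx2 in 3T3 and primary cells (19.2 to 1.36%) or in primary cells only (30.9 to 6.18%).

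The sites were scattered over the genome, on every autosome and on X, and 747 of 906 (82.5%) had no other such site within 50 kb. The median distance to the nearest other site was 395 kb, against 22.5 kb between nearest Foxa2 peaks of the whole list. A small part of a list is spaced more widely by its size, so wide spacing is no trait of the sites. Their share of Foxa2 peaks ranged from 2.37% on X (5 of 211) and 3.51% on chromosome 18 (20 of 569) to 9.79% on chromosome 19 (41 of 419, 7.3 to 13.0%). Chromosomes 15 (9.29%) and 11 (9.28%, 86 of 927) were close to the latter. On chromosome 19, 11 of the 41 sites and 20 of the 419 Foxa2 peaks lay in 1 window of 61.9 kb, described below. Chromosome 11 also carried 9.12% of the day 3 Runx2 peaks against 6.29% of the Foxa2 peaks, and X 0.889 against 1.43%. The 46 Foxa2 peaks on Y included no 3T3-only site, and neither 3T3 Runx2 list held a peak there.

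**Figure D5:**
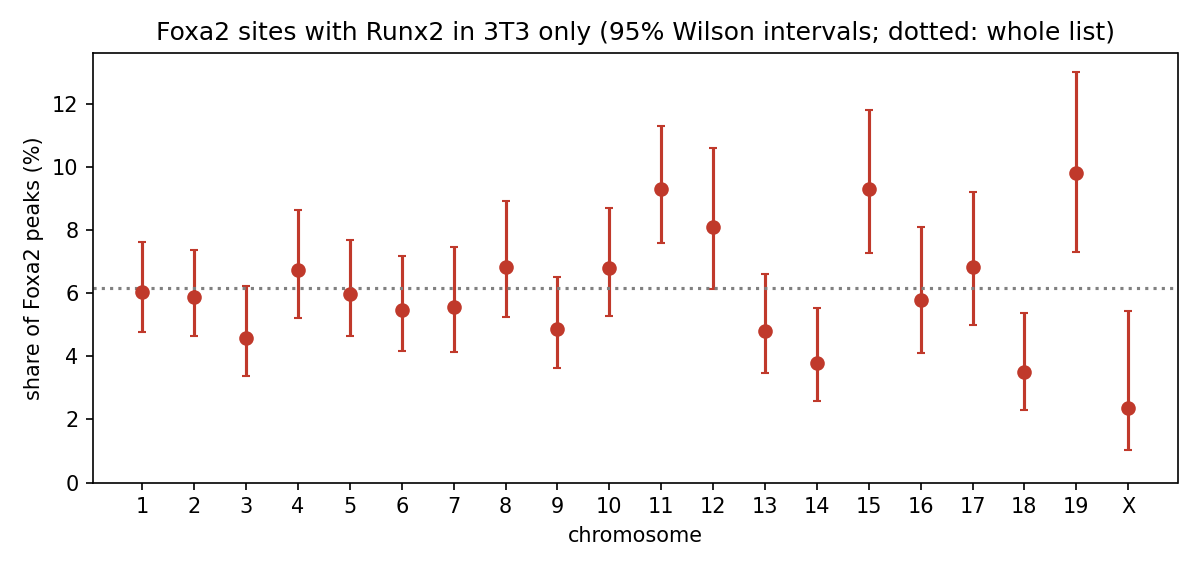
3T3-only sites as a share of the Foxa2 peaks on each chromosome (points, %, with 95% Wilson intervals); the dotted line is the 6.15% of the whole list. Chromosomes 11, 15 and 19 lie above 9%, and 14, 18 and X lie below 4%. The chromosome 19 share includes 11 sites of 1 window of 61.9 kb.

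One dense group stood out on chromosome 19, from 5780420 to 5842293. It held 11 of the sites in 61.9 kb, whereas the other groups held at most 3. Of the 20 Foxa2 peaks in this window, 11 were 3T3-only sites, 8 had no Runx2 list and 1 had Runx2 in primary cells only. The window was rich in 3T3 Runx2 peaks, with 47 at day 3 and 36 in the list named for day 0, and it held 10 chondrocyte Runx2, 4 osteoblast Runx2 and 12 Jun peaks. It also held 15 GFP day 0 peaks, 60.6 per 10000 of that list, against 13.6 per 10000 for Foxa2 and 9.37 for 3T3 Runx2 day 3, and 3 peaks of the list named for GFP day 3.

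Within the group, 6 sites were in both 3T3 lists, 2 in day 3 only and 3 in the list named for day 0 only. With the exchange, 8 of the 11 were kept and none was in both lists. The sites from 5806175 to 5806284 and from 5816103 to 5816223 overlapped Jun, and the site from 5839837 to 5839952 overlapped GFP day 0. The widest, from 5836074 to 5836441 (368 bp), was in the list named for day 0 only. Without this window the Jun odds ratio against Foxa2 peaks with no Runx2 list was 5.55 (3.66 to 8.29) and that for GFP day 0 was 8.14 (2.38 to 25.7).

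The next group, on chromosome 2 from 91887896 to 91919149, held 3 sites, all at day 3 only and none in Jun or a GFP list. Its last 2 overlapped each other and the same 3T3 Runx2 peak, so they are not independent. The shortest group of 3, singled out after its values were seen, spanned 640 bp on chromosome 7 from 146110830 to 146111469. There 1 Runx2 peak of the list named for day 0 (176 bp) met the first and second Foxa2 peaks, the second of which overlapped Jun, and a separate day 3 peak of 153 bp met the third. In all, 5 of the 906 sites overlapped another Foxa2 peak, and the day 3 peaks behind the sites numbered 792, of which 79 also overlapped a primary Runx2 peak outside the site.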

How the data were processed

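The authors deposited 1 peak list for each ChIP group, giving a chromosome, a start and an end position per peak and no height or score. Positions are of build mm9, and Bowtie and DiffBind are named without a role, per the submitters' processing notes. Input and IgG libraries are among the samples, but the sources used here do not say which control, caller, threshold or tool version made each list, or whether libraries were pooled. Starts were read as BED starts, counted from 0, and are printed 1-based.

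Overlap meant at least 1 bp shared. The sites, classes and regions to name were chosen with earlier results of these data known. Regions named are the 8 widest sites, the 3 widest in both 3T3 Runx2 lists, with Jun and with a GFP list, the 3 nearest to and farthest from primary Runx2, the first 3 in the file, and the 2 largest groups spaced within 50 kb; 1 more group was added. Shares have 95% Wilson intervals and differences Newcombe intervals. Fisher's exact test (two-sided) compared the classes, with the conditional odds ratio and p-values adjusted together over 8 tests (Benjamini-Hochberg; 5 had an adjusted p under 0.05). Each group was 1 list, so tests and intervals cover the counting of peaks, not the spread between animals or cultures, and neighbouring peaks are not independent. Planned motif and gene analyses were not run, since no genome or annotation of build mm9 was used here. The count of 906 was checked with bedtools 2.31.1, and the code was tested on simulated data. Software was Python 3.11.15, NumPy 2.4.6, pandas 2.3.3, SciPy 1.17.1, statsmodels 0.14.6 and matplotlib 3.10.9. Of the alternatives, 11 were planned and 2 (stratification by 10 parts of the file order, and removal of the chromosome 19 group) were added after seeing the data.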

Additional observations from a re-analysis of the deposited data

How the results depend on the processing

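The share of Foxa2 peaks that were 3T3-only sites (6.15%) moved outside its interval with at least 50% of the shorter peak shared (5.14%), centres within 250 bp (6.65%), the crossed lists exchanged (5.53%), the day 3 list alone (5.2%), the wider 50% of each list (5.47%), the first 50% in file order (3.34%) and no primary Runx2 within 1 kb (4.75%). Halved lists hold fewer partners. Jun against peaks with no Runx2 list kept its call under 13 of 13 alternatives (odds ratio 3.84 to 6.75), as did the list named for GFP day 3 under 12 of 12 (4.66 to 46.9). The exchange gave the 46.9, and the 0.401 below, with the list named for 3T3 Runx2 day 0, which the original rule used. GFP day 0 lost its call with 50% shared (4.58) and kept it otherwise, at up to 23.8 (first 50%). Jun against peaks with Runx2 in 3T3 and primary cells lost its call in the wider 50% (0.566) and first 50% (0.702), and so did the comparison of day 3 Runx2 peaks by Foxa2 (0.629 and 0.704, and 0.678 without GFP-listed peaks). Jun against peaks with primary Runx2 only passed the threshold in the first 50% (3.48) and within 10 parts of the file (1.61). The GFP comparisons with Runx2 in 3T3 and primary cells, which passed no threshold, turned direction: for GFP day 0 to 1.16 with centres within 250 bp and 1.49 in the first 50%, and for the list named for GFP day 3 to 1.07 with 50% shared, 1.05 at 200 bp widths, 3.14 in the wider 50%, 1.38 in the first 50% and 1.27 within 10 parts of the file; the exchange gave 0.401, past the threshold. In the wider 50%, GFP day 0 against peaks with Runx2 in 3T3 and primary cells gave no odds ratio, with 3 of 403 3T3-only sites in that GFP list. The causes were not tested. No paired analysis was possible because each group had 1 list, and no replicate could be left out. Unknown depth limits all statements on missing peaks.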
